A study of Oryza sativa with 6 samples.

Results

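Phenylalanine ammonia-lyase (PAL) removes ammonia from phenylalanine and so makes cinnamic acid, the entry step of the phenylpropanoid pathway. Cinnamic acid is carried on to lignin monomers, flavonoids and other phenolic compounds, and plant genomes usually hold PAL as a small family in which some copies lie in tandem. Phenylalanine itself comes from the shikimate pathway, whose enzyme 5-enolpyruvylshikimate-3-phosphate synthase (EPSPS) is the target of glyphosate.

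The family was taken as every gene entry of the deposited expression table whose description holds the words phenylalanine ammonia-lyase. This rule uses no expression value, and it found 6 of the 35018 entries. LOC_Os02g41630, LOC_Os02g41650, LOC_Os02g41670 and LOC_Os02g41680 lie on chromosome 2, LOC_Os04g43800 lies on chromosome 4 and LOC_Os05g35290 lies on chromosome 5. All 6 are on the minus strand.

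RNA was taken from leaves of CA21, a glyphosate-tolerant rice line made by irradiation and chemical mutagenesis of Zhejing30 followed by crosses with the sensitive line P1003. The 3 GLY libraries are from CA21 seedlings sprayed with glyphosate at 2 mg/ml at the third-leaf stage, and the 3 CK libraries are from unsprayed CA21. Both groups are therefore the same tolerant line, no sensitive line is among these libraries, and the leaves for RNA were taken once the sprayed P1003 plants had died, with no time in days given for the RNA samples. Whether the replicates came from separate pots or plants is also not given, so the p values measure only the spread between these libraries.

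The depth implied by the ratio of deposited coverage to FPKM was 3.43 to 3.80 Gb in CK and 3.84 to 4.40 Gb in GLY, so it did not overlap between the groups. The groups stand in the same order in the mapped reads of the study's alignment summary, but in the opposite order in its separate listing of valid reads, and the difference between these listings is not explained in the sources used here. Expression is given as FPKM, fragments normalized to the length of the gene and to the mapped fragments of the library, which can be compared between genes because it is per length. Of the 20 leaf marker entries (chlorophyll a/b-binding proteins and the small subunit of Rubisco), 19 passed the filter on low values, and 1 was called higher and 0 were called lower in GLY. At an adjusted p under 0.05 (limma), 7 of these 19 were lower and 2 were higher in GLY. Over all tested entries, 6.58% were called higher and 2.40% were called lower. By the adjusted p, 5.65% of all tested entries were lower and 19.3% were higher. The summed level of the leaf markers was 48625 to 53723 FPKM in CK and 28842 to 40558 FPKM in GLY. LOC_Os09g17740, one of them, was listed at 0 in GLY3. The meristem gene LOC_Os03g51690 was at most 0.0134 FPKM and the root silicon transporter gene LOC_Os03g01700 was near 0 in every library. The root silicon transporter gene LOC_Os02g51110 stood at 12.8 to 15.3 FPKM in CK and 5.71 to 9.06 FPKM in GLY. The part of cell make-up and depth in the results below was not tested. In leaf RNA of this kind, a change in the number of cells of a type and a change in RNA per cell cannot be told apart.

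After glyphosate, 4 of the 6 PAL entries rose, 0 fell at the threshold used, 1 was not called and 1 was too low to test. The rise ranged from 2.38-fold for LOC_Os02g41650 to 7.13-fold for LOC_Os02g41630. A call required a log2 fold change of at least 1 in either direction and an unadjusted P under 0.05 in limma on log2(FPKM + 1), a scale that understates changes of low genes. Over the 19316 entries that averaged 0.5 FPKM or more and so were tested, 6.58% were called higher and 2.40% were called lower. The 5 PAL entries that passed the filter had a median log2 fold change of 1.33, where the median of all tested entries was 0.20. All 4 calls also had a Benjamini-Hochberg adjusted p under 0.05 over all tested entries, as did 5.96% of all tested entries, but that of LOC_Os04g43800 was close to this limit and above it under most alternatives, as given with that copy. In all 4, every GLY library lay above every CK library, as in 34.3% of all tested entries. By the adjusted p alone, 19.3% of all tested entries were higher and 5.65% were lower, and 4 PAL entries were higher and 1 was lower. With median-of-ratios scaling, which moved the median of all entries to -0.02 and the calls from 1271 higher of 1734 to 804 higher of 1568, 3 PAL entries were called. With the library-size covariate of Ballgown, only LOC_Os02g41630 was called, beside 1137 of all 19316 tested entries, 662 of them higher. This covariate correlated with treatment at r = 0.988 over the 6 libraries, so that fit can hardly separate treatment from library size.

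**Figure D1:**
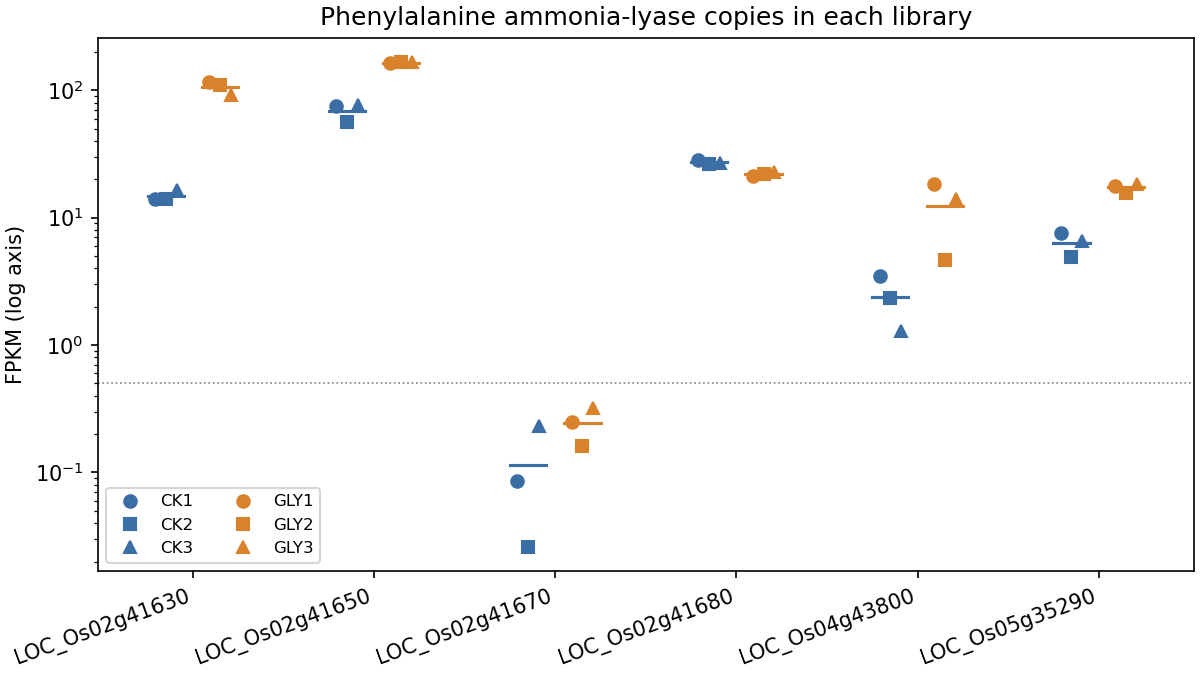
FPKM of the 6 PAL copies (log axis) in each CK library (blue) and GLY library (orange), with bars at the group means and a dotted line at the filter of 0.5 FPKM, which was applied to the mean of all 6 libraries. LOC_Os02g41630 stands at 14.1 to 16.4 FPKM in CK and 92.0 to 116 FPKM in GLY, while LOC_Os02g41680 is the only copy above the filter whose GLY values lie below its CK values.

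The 4 copies on chromosome 2 span 35.7 kb, and the deposited data list no other annotated entry between them. Loci of the genome annotation that the deposited data do not list were not looked at. The gaps between successive copies are 7.5, 3.4 and 11.1 kb. Positions are those of the deposited table. The study names the Nipponbare reference IRGSP build 5.0, and the positions were not checked against a genome.

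LOC_Os02g41630 (chromosome 2, 24973386 to 24977336) is the first of the tandem copies by position. Its level was 14.1, 14.1 and 16.4 FPKM in CK1, CK2 and CK3, and 116, 111 and 92.0 FPKM in GLY1, GLY2 and GLY3. Every GLY library lay far above every CK library. The mean rose from 14.9 ± 1.34 to 106 ± 12.5 FPKM (SD, n = 3 libraries in each group), a 7.13-fold difference. The log2 fold change was 2.75 (SE 0.12, 95% interval 2.45 to 3.05, limma adjusted p = 0.000267). It ranked 73 among the 19316 tested entries, counted from the largest rise. Relative to the median of all entries the rise was 2.55 on the log2 scale. Leaving out single libraries gave log2 fold changes of 2.69 to 2.85. Under the library-size covariate it was 3.01, with an unadjusted P of 0.0442 and an adjusted p of 0.734.

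LOC_Os02g41650 (chromosome 2, 24984871 to 24989388) was the copy with the highest level in all 6 libraries. It stood at 74.7, 56.4 and 76.6 FPKM in CK1 to CK3, and at 163, 167 and 166 FPKM in GLY1 to GLY3. The sprayed libraries were close to each other and all above the unsprayed ones, among which CK2 was the lowest. The mean rose from 69.2 ± 11.1 to 165 ± 1.89 FPKM (SD, n = 3 per group). The log2 fold change was 1.25 (SE 0.13, 95% interval 0.93 to 1.58, limma adjusted p = 0.00296). With median-of-ratios scaling it was 0.96, below the fold threshold, with an adjusted p of 0.00788 (limma).

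This locus has 3 annotated transcripts, of which LOC_Os02g41650.1 held 98.6% to 99.1% of the summed transcript level in every library. LOC_Os02g41650.1 rose from 90.7, 68.7 and 93.2 FPKM in CK to 198, 203 and 202 FPKM in GLY (log2 fold change 1.26, limma adjusted p = 0.00997 over all transcripts). Its values are above those of the gene entry, which is computed over a longer combined length. LOC_Os02g41650.2, a single-exon transcript within the same gene, was between 0.556 and 0.875 FPKM in CK and between 1.77 and 2.31 FPKM in GLY, and it was not called (log2 fold change 0.81, limma adjusted p = 0.0590). The share of the main transcript did not separate the groups (exact permutation test, two-sided, p = 0.5).

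LOC_Os02g41670 (chromosome 2, 24992827 to 24995414) was close to the limit of detection. Its level was 0.0851, 0.0260 and 0.230 FPKM in CK1 to CK3, and 0.249, 0.160 and 0.318 FPKM in GLY1 to GLY3. These values overlap between the groups, and the entry did not pass the filter. Its single transcript was covered by at most 1.22 reads per base in any library, so no change was detectable at this depth. Fitted without the filter, its log2 fold change was 0.16.

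LOC_Os02g41680 (chromosome 2, 25006467 to 25009121), the last of the tandem copies, did not share the rise. Its level was 28.1, 26.2 and 27.0 FPKM in CK1 to CK3, and 21.4, 22.2 and 22.9 FPKM in GLY1 to GLY3. All GLY values lay below all CK values, but the gap was small. The means were 27.1 ± 0.982 and 22.2 ± 0.745 FPKM (SD, n = 3 per group), with a log2 fold change of -0.28 (SE 0.08, 95% interval -0.47 to -0.09). The limma adjusted p was 0.0487, and over the 12 alternatives without the library-size covariate it ranged from 0.00636 to 0.136. Among all tested entries, 10.6% had every GLY library below every CK library. With median-of-ratios scaling the log2 fold change was -0.57. The coverage of its transcript, 87.9 to 100.2 reads per base, was far above that of LOC_Os02g41670.

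**Figure D2:**
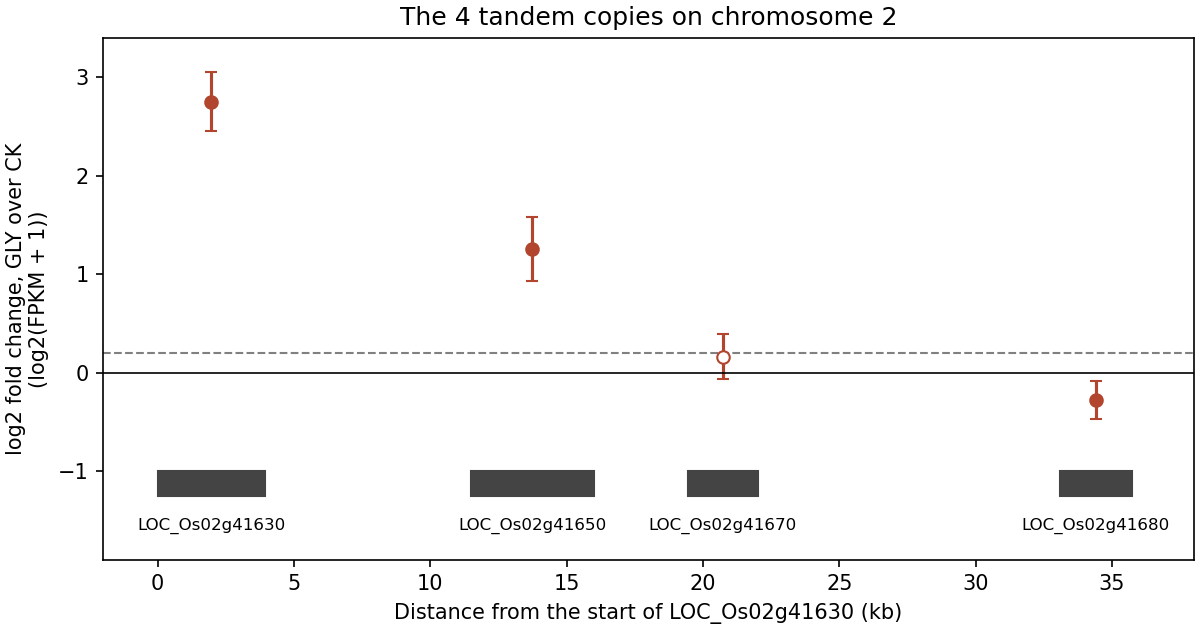
log2 fold change (GLY over CK, on log2(FPKM + 1)) of the 4 tandem copies on chromosome 2 against distance in kb from the start of LOC_Os02g41630, with 95% intervals from limma, gene extents as dark boxes, an open circle for the copy below the filter and a dashed line at the median of all tested entries, 0.20. The values are 2.75, 1.25, 0.16 and -0.28 in the order of the copies.

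The 95% intervals of the 3 tandem copies that passed the filter do not overlap each other. LOC_Os02g41630 stood at 0.189 to 0.250 of the level of LOC_Os02g41650 in CK and at 0.555 to 0.709 of it in GLY. LOC_Os02g41680 stood at 0.353 to 0.464 of the level of LOC_Os02g41650 in CK and at 0.131 to 0.138 of it in GLY. Both ratios, which do not depend on how a library is scaled, were separate between the groups. How reads that map to more than 1 copy were counted is not given in the sources used here, and the likeness of the copies in sequence was not analysed here.

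The nearest annotated neighbours of the tandem copies among the deposited entries were low. LOC_Os02g41610, at 13.1 kb on one side, was listed at 0 in 5 libraries and at 0.0233 FPKM in GLY2. LOC_Os02g41760, an NB-ARC domain gene at 94.2 kb on the other side, stood between 0.208 and 0.718 FPKM with overlapping groups. Neither passed the filter. Beyond LOC_Os02g41610, the next entry out was LOC_Os02g41590, a pfkB family kinase gene at 26.7 kb that was chosen after its values were seen. It rose from 4.23, 5.50 and 4.65 FPKM in CK to 13.9, 11.4 and 14.1 FPKM in GLY (log2 fold change 1.29, limma adjusted p = 0.00277). Beyond LOC_Os02g41760, the next entry out was LOC_Os02g41780, at 109.9 kb. It stood at 0.0475 to 0.0526 FPKM in CK and 0.0637 to 0.201 FPKM in GLY, and did not pass the filter.

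LOC_Os04g43800 (chromosome 4, 25926988 to 25929732) was the most variable copy that passed the filter. It stood at 3.51, 2.33 and 1.28 FPKM in CK1 to CK3, and at 18.2, 4.67 and 14.1 FPKM in GLY1 to GLY3. Every GLY library was above every CK library, but GLY2 lay much nearer to CK1 than to the other sprayed libraries. The coefficient of variation was 46.9% in CK and 56.3% in GLY. The mean rose from 2.37 ± 1.11 to 12.3 ± 6.94 FPKM (SD, n = 3 per group), a 5.20-fold difference. The log2 fold change was 1.86 (SE 0.51, 95% interval 0.60 to 3.12, limma adjusted p = 0.0469). Without GLY2 it was 2.39 (limma adjusted p = 0.0168), and without GLY1 it was 1.51 (limma adjusted p = 0.113). Each single library other than GLY2, left out in turn, took the adjusted p above 0.05, while the call itself was kept. The limma adjusted p was also 0.0798 with median-of-ratios scaling, 0.091 with no filter and 0.0706 with the replicate block, and it was 0.114 in a linear model with no moderation.

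A further locus on chromosome 4, LOC_Os04g43760 (25906849 to 25910074), has transcripts described as PAL but is not among the 6 entries. In the deposited gene table its transcripts belong to an assembled entry named for the neighbouring LOC_Os04g43770 and described as an expressed protein. The annotated transcripts of LOC_Os04g43760 summed to 0.114, 0.0385 and 0.737 FPKM in CK1 to CK3, and to 0.0536, 0.703 and 1.42 FPKM in GLY1 to GLY3. These values overlap, with GLY1 below CK1. The combined entry stood at 3.73, 3.64 and 2.77 FPKM in CK and at 8.44, 7.74 and 5.36 FPKM in GLY, and it was not called (log2 fold change 0.89, limma adjusted p = 0.0210). Its 10 transcripts include 6 assembled ones that overlap LOC_Os04g43760, so the level of the combined entry does not measure this PAL copy alone. One of the 6, MSTRG.16136.5, chosen after its values were seen, was called higher, at 0.199, 0.418 and 0.686 FPKM in CK and 2.58, 3.19 and 1.92 FPKM in GLY (log2 fold change 1.31, limma adjusted p = 0.0306).

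The other neighbours of LOC_Os04g43800 gave no call. LOC_Os04g43750, again a pfkB family kinase gene, had a log2 fold change of 0.37 (limma adjusted p = 0.209). LOC_Os04g43810 did not pass the filter.

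LOC_Os05g35290 (chromosome 5, 20953410 to 20955923) stands alone and has a single exon. Its level was 7.51, 4.93 and 6.59 FPKM in CK1 to CK3, and 17.8, 15.7 and 18.5 FPKM in GLY1 to GLY3. The groups were well apart. The mean rose from 6.34 ± 1.31 to 17.3 ± 1.48 FPKM (SD, n = 3 per group), a 2.73-fold difference. The log2 fold change was 1.33 (SE 0.16, 95% interval 0.94 to 1.72, limma adjusted p = 0.0041), and it ranked 752 among the 19316 tested entries.

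In the transcript table, 10 transcripts at 7 loci are described as PAL, of which 6 passed the filter and 4 were called higher. Among all 32646 tested transcripts, 6.66% were called higher. The 4 called PAL transcripts belong to the same 4 copies as the called entries. At this level the adjusted p of LOC_Os04g43800.1 was 0.0944 and that of LOC_Os02g41680.1 was 0.235 (limma). Of the 16 transcripts that overlap a PAL locus, 0 lie on the opposite strand.

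The order of the copies by FPKM changed between the groups. In CK the order was LOC_Os02g41650, LOC_Os02g41680, LOC_Os02g41630, LOC_Os05g35290, LOC_Os04g43800 and LOC_Os02g41670, and no neighbours in this order overlapped. In GLY LOC_Os02g41630 stood above LOC_Os02g41680, and LOC_Os05g35290 and LOC_Os04g43800 overlapped. The other neighbours in the GLY order did not overlap.

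Summed over the family, the level was 128, 104 and 128 FPKM in the CK libraries, and 336, 320 and 314 FPKM in the GLY libraries. All GLY sums were above all CK sums. The mean was 120 ± 13.9 FPKM in CK and 323 ± 11.7 FPKM in GLY (SD, n = 3 per group), a 2.69-fold difference, and the difference in mean log2 was 1.44. A two-sided exact permutation test gave p = 0.1, and with 3 libraries in each group no smaller p can be reached. With median-of-ratios scaling this difference was 1.13.

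Within the family sum, LOC_Os02g41630 took 11.0%, 13.6% and 12.8% in the CK libraries, and 34.4%, 34.6% and 29.3% in the GLY libraries. LOC_Os02g41680 took 22.0%, 25.2% and 21.1% in CK, and 6.37%, 6.94% and 7.30% in GLY. LOC_Os02g41650 took 58.3%, 54.3% and 59.8% in CK, and 48.5%, 52.1% and 52.8% in GLY. The shares of these 3 copies did not overlap between the groups. The difference in mean share, GLY minus CK, was 20.3 percentage points for LOC_Os02g41630, -15.9 points for LOC_Os02g41680 and -6.33 points for LOC_Os02g41650. For each of these 3 of the 6 copies compared, the exact permutation test gave p = 0.1 (two-sided), which the design cannot go below. Adjusted by Benjamini and Hochberg over the 6 copies, this p of the exact permutation test was 0.2 for each of the 3.

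The other shares overlapped between the groups. LOC_Os05g35290 took a mean of 5.25% in CK and 5.36% in GLY (exact permutation test, p = 0.7). LOC_Os04g43800 took 1.99% in CK and 3.79% in GLY (exact permutation test, p = 0.3), and the difference of 1.80 points was 0.987 without GLY1 and 2.97 without GLY2. LOC_Os02g41670 took under 1% in all libraries.

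**Figure D3:**
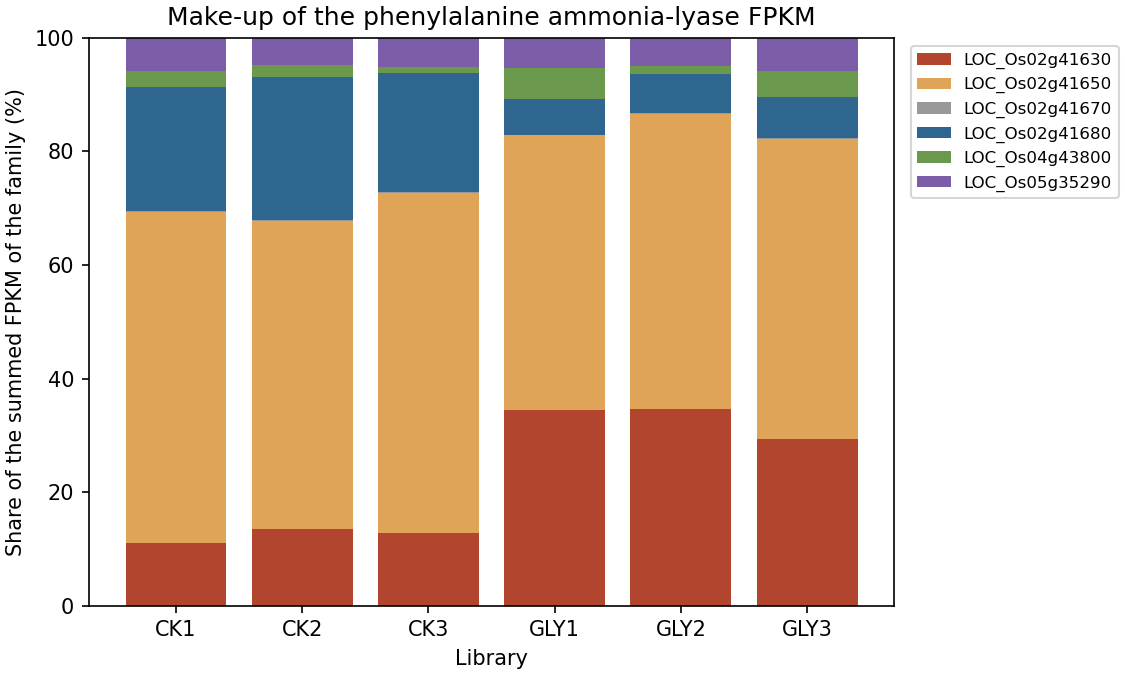
Share of the summed PAL FPKM (%) held by each copy, stacked, in each of the 6 libraries. LOC_Os02g41630 (red) takes 11.0% to 13.6% in CK and 29.3% to 34.6% in GLY, LOC_Os02g41680 (dark blue) takes 21.1% to 25.2% in CK and 6.37% to 7.30% in GLY, and LOC_Os02g41670 is too low to be seen.

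Before PAL in the pathway, the EPSPS gene LOC_Os06g04280 rose from 4.78, 4.48 and 2.87 FPKM in CK to 11.0, 11.6 and 10.1 FPKM in GLY (log2 fold change 1.26, SE 0.17, limma adjusted p = 0.0061). With median-of-ratios scaling its log2 fold change of 0.999 lay just under the threshold. With the library-size covariate it was -0.01 (linear model, unadjusted P = 0.992). That covariate correlated with treatment at r = 0.988, so this fit cannot decide whether the gene rose. The study reported an upward trend for the EPSPS transcript LOC_Os06g04280.1, which did not reach significance in its own test. Arogenate dehydratase makes phenylalanine and prephenate dehydratase makes its keto acid phenylpyruvate, and neither of the 2 entries described as such was called. LOC_Os04g33390, the higher of the pair, stood at 6.10, 0 and 6.35 FPKM in CK and 9.31, 10.5 and 10.6 FPKM in GLY, where the value of CK2 is listed at 0 (log2 fold change 1.57, limma adjusted p = 0.204).

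After PAL, the lists from cinnamate 4-hydroxylase to flavanone 3-hydroxylase held 45 entries, of which 31 passed the filter. Of these, 14 were called higher, 1 was called lower and 16 were not called, beside 6.58% called higher and 2.40% called lower over all tested entries. Their median log2 fold change was 0.89, where that of all tested entries was 0.20. By the limma adjusted p alone, 15 were higher and 3 were lower, beside 19.3% higher and 5.65% lower over all tested entries. With median-of-ratios scaling 7 of the 31 were called higher and 1 lower, where 804 of all 19191 tested entries were called higher. Their median was then 0.62, beside -0.02 for all entries. The 7 are LOC_Os02g08100, LOC_Os02g46970, LOC_Os08g38910, LOC_Os08g34280, LOC_Os11g32650, LOC_Os11g02440 and LOC_Os04g49194, described below. With the library-size covariate 2 of the 31 were called, both higher, beside 662 called higher of all 19316 tested entries. Many of these entries carry only a general description in the table, such as cytochrome P450 or AMP-binding domain protein, and were placed by locus identifier. Others were placed by a description that names the enzyme, among them LOC_Os11g02440, LOC_Os04g49194 and LOC_Os04g49210.

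The general steps after PAL also differed between copies. Cinnamate 4-hydroxylase (C4H) hydroxylates the product of PAL. Its main entry LOC_Os05g25640 stood at 62.4, 57.6 and 63.4 FPKM in CK and 119, 118 and 112 FPKM in GLY. The groups were far apart, but the log2 fold change of 0.92 lay under the fold threshold (limma adjusted p = 0.0015). The lower C4H entry LOC_Os01g60450 was called higher, at 1.11.

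4-coumarate-CoA ligase (4CL) activates coumaric acid. LOC_Os02g08100, its entry with the highest level, rose from 19.4, 28.6 and 25.8 FPKM in CK to 106, 105 and 98.9 FPKM in GLY (log2 fold change 2.05, limma adjusted p = 0.0011). LOC_Os02g46970 rose by a log2 fold change of 2.19. The other 4 entries of the 4CL list were not called. Of these 4, LOC_Os08g14760 was lower in GLY (log2 fold change -0.58, limma adjusted p = 0.0338).

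The enzymes that lead to lignin monomers were mixed. Hydroxycinnamoyl transferase (HCT) entries LOC_Os04g42250 and LOC_Os02g39850 had log2 fold changes of 1.15 and 1.25, with limma adjusted p values of 0.0466 and 0.0856. Coumarate 3-hydroxylase (C3H) LOC_Os05g41440 rose by 1.17. Among 5 entries of caffeoyl-CoA O-methyltransferase, which methylates caffeoyl-CoA, LOC_Os08g38910 rose by 2.01 and LOC_Os08g38900 by 1.25 on the log2 scale, and 3 were not called. Of these 3, LOC_Os09g30360 was lower in GLY (log2 fold change -0.57, limma adjusted p = 0.0252).

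Cinnamoyl-CoA reductase (CCR) commits the pathway to lignin monomers. In its list of 10 entries, LOC_Os08g34280 rose (log2 fold change 1.32). LOC_Os08g17500 fell from 6.29, 5.39 and 5.76 FPKM in CK to 0.560, 0.683 and 1.05 FPKM in GLY (log2 fold change -1.96). LOC_Os09g25150, the CCR entry with the highest level, had a log2 fold change of 0.19 and was not called, and with median-of-ratios scaling its sign turned to -0.11. The ferulate 5-hydroxylase (F5H) entry LOC_Os10g36848 and the cinnamyl alcohol dehydrogenase (CAD) entry LOC_Os02g09490 had log2 fold changes of -0.30 and 0.02 and were not called.

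In the flavonoid branch, 5 of the 6 tested entries for its first enzymes were called higher, beside 6.58% of all tested entries. With median-of-ratios scaling 3 of the 6 were called, and with the library-size covariate 0 were called by the linear model, with unadjusted P from 0.185 to 0.856. Chalcone synthase LOC_Os11g32650, which makes the first flavonoid precursor, stood at 1.19, 1.95 and 1.44 FPKM in CK and 68.7, 65.3 and 30.0 FPKM in GLY. GLY3 was lower than the other sprayed libraries and still far above CK. Its log2 fold change of 4.38 (SE 0.34, limma adjusted p = 0.0012) was the largest of the pathway lists reported here. The chalcone isomerase entries LOC_Os11g02440 and LOC_Os03g60509 rose by 1.85 and 1.08, and the flavanone 3-hydroxylase (F3H) entries LOC_Os04g49194 and LOC_Os04g49210 by 1.37 and 1.16, on the log2 scale. With the library-size covariate the sign of LOC_Os04g49194 turned, to -0.46. LOC_Os04g56700, the F3H entry placed by locus identifier, did not pass the filter. It stood at 0.377, 0 and 0.185 FPKM in CK and at 0 in every GLY library. LOC_Os01g24980, the remaining F3H entry, was also below the filter, at 0.0899 to 0.349 FPKM in CK and 0.267 to 0.444 FPKM in GLY.

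**Figure D4:**
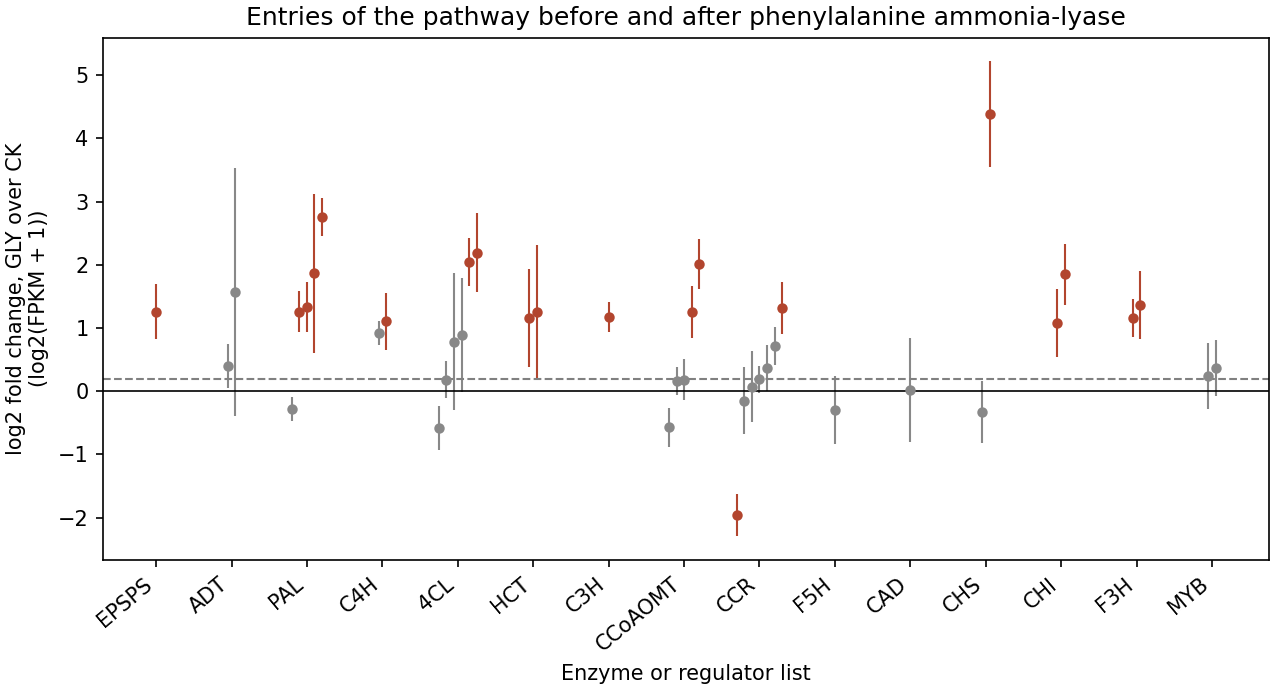
log2 fold change (GLY over CK, on log2(FPKM + 1)) with 95% intervals for each tested entry of the pathway lists, in pathway order from EPSPS and arogenate or prephenate dehydratase (ADT) through PAL to the flavonoid enzymes and MYB regulators, with called entries in red, entries not called in grey and a dashed line at the median of all tested entries, 0.20. CHS, CHI and CCoAOMT are chalcone synthase, chalcone isomerase and caffeoyl-CoA O-methyltransferase, and the highest point, at 4.38, is chalcone synthase LOC_Os11g32650.

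MYB transcription factors regulate phenylpropanoid genes in plants. Of the 4 MYB entries of the list that the table holds, 2 passed the filter and 0 were called by limma, and neither had an unadjusted P under 0.05. LOC_Os09g36250, the one with the highest level, had a log2 fold change of 0.37. LOC_Os02g41510, named after its values were seen, was listed at 0 in all CK libraries and stood at 0.0523, 0.261 and 0.524 FPKM in GLY1 to GLY3.

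The annotated entries whose profiles over the 6 libraries were nearest to that of the PAL sum were ranked by the root mean square difference in centred log2(FPKM + 1), among 16198 tested entries. They were an amino acid permease gene (LOC_Os01g71740, difference 0.0394), a retrotransposon gene (LOC_Os01g16130, 0.0595), a glutathione S-transferase gene (LOC_Os10g38780, 0.0724), a second retrotransposon gene (LOC_Os10g27030, 0.0735) and a signal peptide peptidase gene (LOC_Os10g25360, 0.0748). The glutathione S-transferase gene LOC_Os10g38780 stood at 6.47, 5.27 and 7.33 FPKM in CK and at 17.4 FPKM in each GLY library. LOC_Os01g71740 was low, at 0.0536 to 0.257 FPKM in CK and 1.95 to 2.11 FPKM in GLY. In the order given, the 5 entries differed 11.3-, 4.02-, 2.74-, 3.67- and 2.95-fold between the groups, where the PAL sum differed 2.69-fold. The scale understates changes of low genes, so nearness in this measure is not likeness in fold. The measure mostly reflects the difference between the groups, and it covers 6 libraries only.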

How the data were processed

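After depletion of ribosomal RNA and paired-end sequencing, the authors aligned the filtered reads to the Nipponbare genome by Bowtie 2 and TopHat2, assembled transcripts with StringTie and estimated expression with Ballgown. They deposited FPKM per gene entry and per transcript for each library, without pooling replicates. The deposited transcript table also holds coverage, in reads per base, and the depth of a library was computed as coverage over FPKM. Counts per gene were not used, so precision comes from the spread between 3 libraries per group.

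CK and GLY were compared with limma 3.58.1 (lmFit, eBayes with trend, two-sided) in R 4.3.3 on log2(FPKM + 1), over all entries with a mean of at least 0.5 FPKM, and p values were adjusted by Benjamini and Hochberg over all of them. Calls followed the threshold of the study, 1 or more in absolute log2 fold change with P under 0.05. Family sums and shares were compared by exact permutation tests. The alternatives were no filter, a filter at 1 FPKM, a pseudocount of 0.1, the library-size covariate of Ballgown, scaling by median-of-ratios factors, unmoderated variances, a replicate block and each library left out. The fit with the library-size covariate also used unmoderated variances. The rule that needs only the adjusted p, and shares over the 4 copies on chromosome 2, were added after seeing the data.

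All family members were named. From each pathway list, the entry with the highest mean and up to 2 called entries with the largest change were named, together with neighbours of the tandem copies and the 5 nearest profiles. Other entries named beside these, below the filter or not called, were added after their values were seen. Members and lists were chosen with earlier results of these data known. LOC_Os12g33070 and LOC_Os07g03770 of the lists were not analysed here. One list of the pathway is not reported here, and its entries are in no count of the pathway lists.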

Additional observations from a re-analysis of the deposited data

How the results depend on the processing

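The 4 PAL entries called stayed at 4 with each library left out in turn (4 to 4). With all libraries, 5 passed the rule that needs only the adjusted p, 4 higher and 1 lower. With a library left out, 4 passed it without GLY2 and 3 passed it in each other case, all of them higher. With the library-size covariate and unmoderated variances, 1 of 5 PAL entries and 1 of 6 PAL transcripts were called, against 4 and 4 in the main fit. Unmoderated variances without the covariate also gave 4 and 4. With the covariate the log2 fold changes were 0.38 for LOC_Os02g41650, 2.62 for LOC_Os04g43800 and 0.29 for LOC_Os05g35290, none called. Over all 19316 tested entries, 1137 were called with this covariate. Of the 36 tested entries of the pathway lists reported here, 16 were called, beside 1734 of all 19316 tested entries. With the library-size covariate 2 of the 36 were called, a share close to that of all tested entries. With median-of-ratios scaling 8 of 35 were called, beside 1568 of all 19191 tested entries. With a library left out 14 to 16 of 35 to 37 were called, beside 1786 to 1893 of all tested entries. The log2 difference of the PAL sum, 1.44, was 1.13 with median-of-ratios scaling and 1.33 to 1.49 with a library left out. The difference in the share of LOC_Os02g41670 was -0.0152 points, ranged from -0.0479 to 0.0294 with a library left out and was above 0 without CK3, and that of LOC_Os05g35290 was 0.111 points, ranged from -0.16 to 0.419 and was below 0 without CK2 (-0.145) and without GLY3. Same-numbered CK and GLY libraries did not deviate together (r = 0.0035, 0.0099 and 0.006). Whether they were grown, harvested or sequenced as pairs is not given in the sources used here. With the replicate block the PAL sum differed by 1.44 (exact sign-flip test, p = 0.25), 4 PAL entries were called, and no call among them changed, though the limma adjusted p of LOC_Os04g43800 became 0.0706 and that of LOC_Os02g41680 became 0.136. The causes of these changes were not tested. The design has 3 libraries per group, so no exact test could pass 0.05, and coverage limits LOC_Os02g41670 most.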
